A study of Rattus norvegicus with 16 samples.

Results

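Ubiquitin-conjugating enzymes, the E2 enzymes, were described in whole blood of 16 rats that received saline. The genes were those with a symbol starting with Ube2 that were listed in all 16 count files. By this rule, which uses names and no measured value, 37 rows with 34 distinct symbols were kept of the 18031 rows listed in every file. The rows differ in number from the symbols because Ube2l3, Ube2n and Ube2wl each have 2 rows. The 2 Ube2wl rows held identical values in every library, so they are 1 measurement given under 2 identifiers. Ube2cbp carries the prefix in its symbol but is named for binding an E2 and is not itself known as one.

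All libraries belong to 1 group, labelled Saline Control. The rats were adult male Sprague-Dawley animals of 85 to 90 days, which had been injected with saline 4 times, at 1 ml/kg and 2 h apart. Blood was drawn from the heart 3 h after the last injection, alpha and beta globin mRNA was depleted, and polyadenylated RNA was sequenced. With 1 group there was no treated sample to compare, so the question was which E2 genes varied from rat to rat with red cell genes such as Alas2 and which varied with leukocyte genes.

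Ubiquitin passes from an E1 activating enzyme to an E2, and an E3 ligase then brings the loaded E2 to its substrate. Most E2 enzymes carry ubiquitin itself. A few carry related proteins, such as Ube2m and Ube2f for NEDD8 and Ube2l6 for ISG15. Reticulocytes, the young red cells of blood, clear proteins and organelles as they mature, and ubiquitination is known to take part in that remodelling. In blood, E2 transcripts can come from reticulocytes, from platelets and from each kind of leukocyte.

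Each library was placed on marker indices, each being the mean over a list of genes of log2(normalized count + 1). Normalized counts are RSEM estimated counts scaled by edgeR's TMM method. The erythroid index rested on 22 genes, among them Alas2, the erythroid enzyme that starts heme synthesis. The pan-leukocyte index rested on 23 genes, among them Ptprc, which encodes CD45. The lymphocyte index rested on 16 T cell and 14 B cell genes, and the myeloid index on 26 genes. No E2 gene was in any of these lists. The erythroid index ranged over 1.62 log2 units (3.07-fold), from control 11 to control 10, and the pan-leukocyte index over 0.86 log2 units (1.82-fold), from control 2 to control 8.

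With TMM scaling, the index named pan-leukocyte was mostly a myeloid measure in these rats. It correlated with the myeloid index at Pearson r = 0.97 and Spearman rho = 0.97. Both had a permutation p of 1e-05, the smallest that 100000 permutations can give, with adjusted p = 6e-05 over the 6 pairs of indices, and r was 0.96 without controls 8 and 14. Total count scaling gave r = 0.79 with the myeloid index (permutation test, adjusted p = 0.0017). The pan-leukocyte index ran against the lymphocyte index, with r = -0.76, rho = -0.84, permutation p = 0.00018 and 0.00012, adjusted p = 0.00036 and 0.00024, and r = -0.69 without controls 8 and 14. With total count scaling this relation to the lymphocyte index turned to r = 0.29 (adjusted p = 0.32), and within file codes it was -0.88. The erythroid and pan-leukocyte indices had r = -0.18 with TMM scaling (permutation test, adjusted p = 0.50). Total count scaling gave them r = -0.54 (permutation p = 0.031, adjusted p = 0.081). Without controls 2, 8, 10 and 12 their r was also -0.54 (permutation test, adjusted p = 0.11). It was -0.12 with RLE scaling, -0.05 without controls 5 and 10, and -0.32 within file codes. Ptprc itself ranged from 21055 to 32798 normalized counts and had a slope of 0.28 on the index that held it, with adjusted p = 0.37 in edgeR. Alas2 ranged from 143535 to 644023 and had a slope of 1.06 on the erythroid index, with adjusted p = 0.00013 in edgeR. Each is a member of its index, so its slope is in part fixed by that and is given as a description. In bulk blood, fewer cells of a type and less RNA per cell cannot be told apart.

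The 16 libraries carried 6 letter codes, here called file codes, whose meaning is not stated. The study ran the same experiment on several dates, and the labels do not tie a library to a date. The paper's control groups before its last date have the sizes of code A, of codes B and C together, and of codes D, E and F together. No label states that they are the same sets, and no fit used this grouping. The number of rows listed in a file split the libraries into 4 sets, code A, code B, code C, and codes D, E and F together. The 5 code B libraries had the highest mean erythroid index, 12.91 against 11.99 in code A and 11.84 in code D, and the code B range did not overlap with either. The totals were 21466776 to 31189549 counts. The TMM factors, which multiply the total in scaling, ranged from 0.657 in control 10 to 1.29 in control 12. In code B they were 0.776, 0.774, 0.737 and 0.657 in controls 5, 7, 8 and 10, and 1.17 in control 4. The E2 rows together took 0.390% ± 0.053 (SD, n = 16) of the counts, from 0.246% in control 2 to 0.443% in control 9. Control 2 also held the highest sum of liver transcripts, 491966 normalized counts over 10 genes against a median of 73.7, and control 8 the next, 29629. Fat transcripts were highest in control 12 and cardiac muscle transcripts in control 10, so the slopes on each of the 4 list indices were also fitted without these 4 libraries.

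Start-site sequences were matched by symbol for 26 of the 34 symbols, from RefSeq on the build GRCr8. They are shown for 4 genes that stand for the patterns below, Ube2j1 and Ube2m for the erythroid side and Ube2d3 and Ube2h for the leukocyte side. Each run holds 300 bases, read 5′ to 3′ on the gene's strand, most of them before the start. Capitals mark matches, on either strand, of AGATAA (the core bound by GATA factors), CCNCNCCC (a Krüppel-like factor core), CCGGAAGT (an ETS core) and GAGGAA (a PU.1 core), where N is any base. Overlapping matches run together, as in Ube2d3, where a GAGGAA match on the opposite strand shares bases with a CCNCNCCC match.
Ube2j1 (chr5:52218557-52218856, + strand): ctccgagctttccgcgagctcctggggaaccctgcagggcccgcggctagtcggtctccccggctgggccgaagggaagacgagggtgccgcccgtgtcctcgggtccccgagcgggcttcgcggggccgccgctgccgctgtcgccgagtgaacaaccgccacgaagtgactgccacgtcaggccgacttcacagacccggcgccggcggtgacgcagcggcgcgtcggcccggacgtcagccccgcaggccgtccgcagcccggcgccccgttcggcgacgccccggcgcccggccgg
Ube2m (chr1:82738249-82738548, - strand): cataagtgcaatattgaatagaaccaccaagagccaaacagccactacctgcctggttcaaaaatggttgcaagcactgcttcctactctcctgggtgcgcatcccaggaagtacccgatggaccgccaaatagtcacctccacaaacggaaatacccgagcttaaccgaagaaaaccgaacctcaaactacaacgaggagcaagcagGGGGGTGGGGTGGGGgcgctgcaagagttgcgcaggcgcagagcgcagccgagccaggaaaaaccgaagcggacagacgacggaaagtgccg
Ube2d3 (chr2:226542944-226543243, + strand): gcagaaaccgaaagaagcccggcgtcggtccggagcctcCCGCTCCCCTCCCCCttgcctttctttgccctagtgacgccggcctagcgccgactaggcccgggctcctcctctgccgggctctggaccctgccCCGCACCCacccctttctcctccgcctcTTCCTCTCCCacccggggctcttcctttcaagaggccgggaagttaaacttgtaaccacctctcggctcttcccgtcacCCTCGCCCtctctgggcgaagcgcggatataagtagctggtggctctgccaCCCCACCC
Ube2h (chr4:59897534-59897833, - strand): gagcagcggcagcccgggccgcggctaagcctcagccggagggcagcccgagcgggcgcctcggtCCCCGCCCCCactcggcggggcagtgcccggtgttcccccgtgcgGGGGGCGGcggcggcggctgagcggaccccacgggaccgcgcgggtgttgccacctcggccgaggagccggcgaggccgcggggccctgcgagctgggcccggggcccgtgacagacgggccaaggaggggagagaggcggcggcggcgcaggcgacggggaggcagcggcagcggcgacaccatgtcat

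AGATAA was found in 0 of the 6 matched genes called on the erythroid index, in 1 of the 26 matched E2 genes (Ube2l3), and in 11.6% of 33469 rat start sites. CCNCNCCC was found in 20 of the 26, in 5 of those 6, in all 4 matched genes called on the pan-leukocyte index, and in 46.3% of start sites. GAGGAA was found in 6 of the 26 and in 27.6% of start sites, and CCGGAAGT in 1 of the 26 (Ube2f) and in 3.81%. The E2 start sites had a median GC content of 66.7%, against 51.7% for all of them. These matches are a description of letters and show no binding.

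Of the 37 rows, 31 passed edgeR's filter on low counts. Ube2d1, Ube2d4, Ube2q2l, Ube2t, Ube2u and Ube2ql1 did not, with mean normalized counts of 25.9, 21.1, 13.5, 7.41, 0.35 and 0.23. Ube2u was at 0 in 12 libraries and Ube2ql1 in 13, and no library held more than 2 counts of either, which is under the 3 counts taken here as the limit that a count of 0 allows. Ube2t, which works in the Fanconi DNA repair pathway, ranged from 1.22 in control 5 to 29.1 in control 12. Control 12 was the second highest library in the summed level of 11 cell cycle genes, 5515 normalized counts against a median of 3406. Control 10, the highest at 7224, held 6.35 of Ube2t, close to its median of 6.27.

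The E2 genes differed in how much they varied between rats. The coefficient of variation (CV, SD over mean) of the 31 rows had a median of 22.8% and ranged from 7.85% to 57.7%. Over all 10920 genes tested the median was 26.5% and the range 4.88% to 356%. Among rows with a mean of at least 100, the steadiest were Ube2j2 (7.85%), Ube2g1 (10.3%) and Ube2q1 (12.3%). Ube2j2 serves the degradation of endoplasmic reticulum proteins. Ube2j2 went from 758 in control 4 through a median of 881 to 994 in control 15. The most variable were Ube2d3 (57.7%), Ube2s (54.3%) and Ube2j1 (53.5%). Ube2d3 went from 6138 in control 4 to 32623 in control 8, and Ube2j1 from 579 in control 15 to 2959 in control 10. The pair Ube2j1 and Ube2j2, both membrane-anchored enzymes, thus stood near opposite ends of the range.

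**Figure D1:**
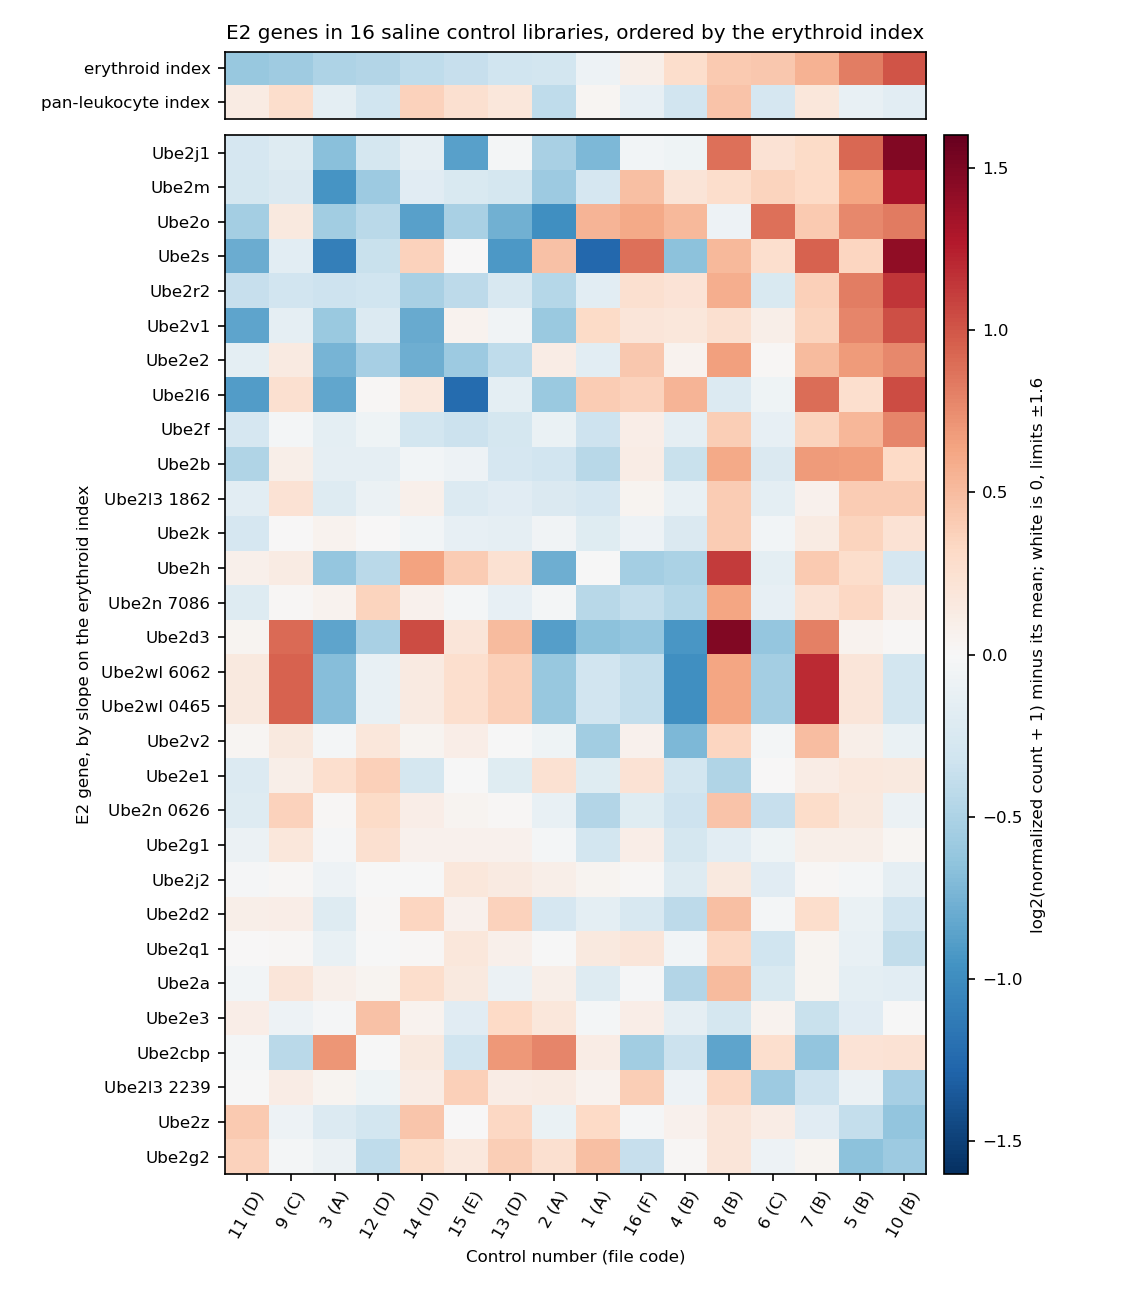
Heat map of 30 tested E2 rows (down) in 16 libraries (across, ordered by the erythroid index, with the control number and file code). Colour is log2(normalized count + 1) minus the row's mean, and the top strip shows both indices on the same scale. Most of the top rows are reddest at the right, in control 10. Ube2d3 is reddest in controls 8, 14, 9 and 7, Ube2h in controls 8 and 14, and Ube2wl in controls 7, 9 and 8. Digits after a symbol are the end of its Ensembl identifier.

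On the erythroid index, 8 of the 31 E2 rows had a positive slope and 0 a negative one at an adjusted p under 0.05 (edgeR quasi-likelihood test, Benjamini-Hochberg over all genes). The slope is the change of a gene, in log2 units, per log2 unit of the index, so a gene with a slope of 1 rose in proportion to it. Over all genes, 7.31% had a positive call and 0.0733% a negative one, against 25.8% and 0% of the E2 rows. The median slope was 0.04 for the E2 rows and -0.08 for all genes. At an unadjusted p under 0.05, edgeR had 12 E2 rows up and 1 down, against 13.2% of all genes in either direction. The one down was Ube2g2, with a slope of -0.36 ± 0.16 (SE). DESeq2 called 10 E2 rows up and 0 down, against 916 and 12 of the 10920 genes, and the permutation test of Pearson r called 7 E2 rows up and 0 down.

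Both NEDD8-carrying enzymes were among the 8. NEDD8 is attached to cullins, the scaffolds of the largest class of E3 ligases. Ube2m ranged from 2285 in control 3 through a median of 3820 to 10952 in control 10. It was at least 5091 in every code B library and at most 3889 in every code A and code D library. Its slope was 0.94 ± 0.13 (SE, n = 16), with adjusted p = 0.00015 in edgeR. Across the libraries r was 0.89 and rho 0.80, with permutation p of 0.00087 and 0.017 after adjustment over all genes, and r was 0.81 without controls 5 and 10. Ube2f ranged from 621 through 729 to 1365, with the highest value in control 10, and had a slope of 0.54 ± 0.10 and adjusted p = 0.0020. It was the shallowest of the 8 slopes. Unscaled, Ube2f had 860 counts in control 10 and 1010 in control 12, of totals of 25161155 and 27345617.

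Ube2r2, a close relative of Cdc34 that works with cullin ligases, ranged from 8450 in control 14 through 10148 to 26659 in control 10. All 5 code B libraries, at 14002 and above, lay over all code A and D libraries, at 10706 and below. Control 6 was the exception to a rise with the index, with 10206 at an erythroid index of 12.72. The slope of Ube2r2 was 0.88 ± 0.12 and its adjusted p 0.00012 in edgeR. Its r was 0.90 and rho 0.81, with adjusted permutation p of 0.0015 and 0.015, and r was 0.81 without controls 5 and 10.

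Ube2j1, which works in the removal of misfolded proteins from the endoplasmic reticulum, had the steepest slope, 1.02 ± 0.16 with adjusted p = 0.00032. Its median was 988, and it reached 1999 in control 5, 1955 in control 8 and 2959 in control 10. Control 4, also of code B, held 1014, within the code D range of 875 to 1039.

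Ube2o combines E2 and E3 activity and is known for clearing ribosomal proteins in reticulocytes. It ranged from 4662 in control 2 through 9538 to 17037 in control 6, and no library lay between 6828 in control 12 and 8754 in control 8. Above that gap lay all code B and code C libraries with controls 1 and 16. Its slope was 0.94 ± 0.21, with adjusted p = 0.0061. Control 9 had an erythroid index of 11.72, near the lowest, and 10322 normalized counts of Ube2o.

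Ube2v1 lacks the catalytic cysteine and pairs with Ube2n to build ubiquitin chains used in signalling. It ranged from 14935 in control 11 through 28348 to 55069 in control 10, with a slope of 0.85 ± 0.14 and adjusted p = 0.00067. Its partner Ube2n had slopes of 0.15 ± 0.15 and -0.02 ± 0.14 for its 2 rows, with adjusted p = 0.77 and 0.97, and Ube2v2, the other partner of Ube2n, 0.03 ± 0.14 and 0.96. Whether these slopes differ from that of Ube2v1 was not tested.

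Ube2e2 ranged from 125 in control 14 to 367 in control 10 and had a slope of 0.75 ± 0.16, with adjusted p = 0.0034. Its close relatives Ube2e1 and Ube2e3 had slopes of -0.01 ± 0.13 and -0.21 ± 0.11, with adjusted p = 0.99 and 0.48. Ube2s extends ubiquitin chains with the anaphase-promoting complex. It ranged from 2311 in control 1 to 14759 in control 10, with a slope of 0.92 ± 0.27 and an adjusted p of 0.046 close to the threshold. Its call was lost when any 1 of controls 3, 7, 8, 9, 10, 11, 12, 13 or 15 was left out, with adjusted p up to 0.38 without control 10, and without the filter on low counts (0.0617). Its r was 0.62 and rho 0.60, with adjusted permutation p of 0.13 and 0.20, and r was 0.49 without controls 5 and 10.

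Ube2l6 and Ube2b lay just outside the threshold. Ube2l6 ranged from 266 in control 15 through 671 to 1296 in control 10, with a slope of 0.74 ± 0.22 and adjusted p = 0.051. Ube2b, a DNA repair enzyme of the Rad6 type, ranged from 4160 in control 11 through 5388 to 9310 in control 7, with a slope of 0.50 ± 0.15 and adjusted p = 0.052. Both passed with RLE scaling, at 0.0355 and 0.0306, and in DESeq2, at 0.017 and 0.014.

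The erythroid calls did not hold when the file code was a term of the fit. No gene of the 10920 was then called in edgeR, where 575 were at an unadjusted p under 0.05. Of the E2 rows, 4 were at an unadjusted p under 0.05 with a positive slope and 1 with a negative one, the minor Ube2l3 row, at -0.59 (p = 0.048). Within codes the slopes were 0.98 for Ube2m (p = 0.0028), 0.84 for Ube2j1 (p = 0.019), 0.87 for Ube2v1 (p = 0.025) and 0.87 for Ube2o (p = 0.044), with adjusted p from 0.40 to 0.91. Those of Ube2r2, Ube2e2 and Ube2f were 0.49, 0.22 and 0.27, with p = 0.085, 0.50 and 0.31. Ube2s had 0.93 with p = 0.18, and Ube2b turned to -0.0237. With both measures centred within codes, r was 0.83 for Ube2m, 0.67 for Ube2j1, 0.66 for Ube2v1, 0.62 for Ube2r2, 0.58 for Ube2o, 0.39 for Ube2s, 0.37 for Ube2f and 0.26 for Ube2e2, a description added after the data were seen. With the set of rows listed as the factor in place of the code, also added after the data were seen, edgeR again called no gene, with 926 genes, 6 E2 rows up and 0 down at an unadjusted p under 0.05. Those 6 were Ube2m (1.08, p = 0.00020), Ube2o (1.18, p = 0.0038), Ube2v1 (0.92, p = 0.0075), Ube2r2 (0.63, p = 0.014), Ube2j1 (0.73, p = 0.029) and Ube2s (1.22, p = 0.042), with adjusted p from 0.20 to 0.57. Whether the slopes go with the dates of the experiments was not tested. With scaling to the total count, 0 E2 rows were called in edgeR, against 37 up and 2 down of all 10920 genes. At an unadjusted p under 0.05 there were 5 E2 rows up and 3 down, against 2033 genes in either direction. The median slope of all genes moved from -0.08 to -0.27. Without controls 2, 8, 10 and 12, 5 remained, the calls of Ube2e2, Ube2f and Ube2s being lost, and 323 of all 10920 genes were up.

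Between file codes A, B and D, 2 of 35 E2 rows tested differed at an adjusted p under 0.05 in edgeR, Ube2r2 (0.038) and Ube2j1 (0.043), against 1.78% of 12952 genes. Ube2e2 (0.051) and Ube2m (0.052) were just outside. For Ube2r2 the means were 9714 ± 948 in code A (SD, n = 3), 19157 ± 5001 in code B (n = 5) and 9395 ± 705 in code D (n = 4). For Ube2j1 they were 686 ± 50.9, 1847 ± 751 and 939 ± 78.5. Code and erythroid index cannot be told apart in this difference, because code B held the libraries with the high index.

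**Figure D2:**
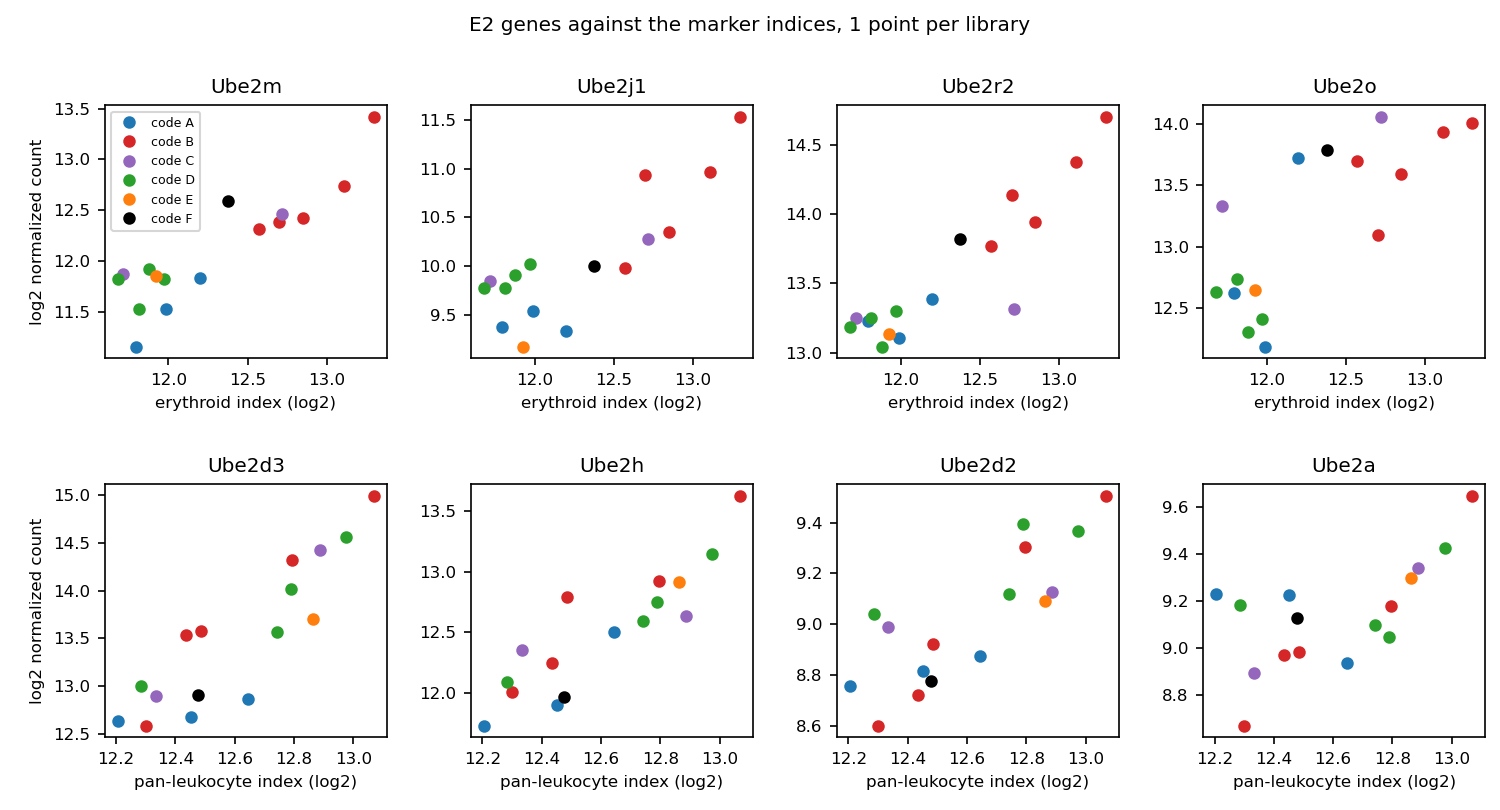
log2 normalized count of 4 E2 genes against the erythroid index (top) and of 4 against the pan-leukocyte index (bottom), 1 point per library, coloured by file code. On top the code B libraries lie to the right of those of codes A and D, and control 10 is highest for Ube2m, Ube2j1 and Ube2r2. Below, control 8 is highest for all 4 genes, and libraries of codes A, B and D are spread along the axis.

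On the pan-leukocyte index, 6 of the 31 rows had a positive slope and 0 a negative one at an adjusted p under 0.05 in edgeR. These were Ube2d3, both Ube2wl rows, Ube2h, Ube2d2 and Ube2a, and since the Ube2wl rows are identical they are 5 measurements. Over all genes 16.1% had a positive call and 10.7% a negative one, against 19.4% and 0% of the E2 rows, so the positive share was near the background. At an unadjusted p under 0.05 there were 7 up and 1 down, against 39.6% of all genes in either direction, so the E2 share was below the background. DESeq2 had 6 up and 1 down, against 1846 and 1647 of the 10920 genes. The permutation test had 6 E2 rows up and 0 down. The fits on the 4 indices share all 16 libraries.

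Ube2d3, a broadly used E2 that works with many ligases, had the steepest slope of the E2 rows on this index, 2.53 ± 0.33 with adjusted p = 1.6e-05 in edgeR. Its r was 0.89 and rho 0.87, with adjusted permutation p of 0.00026 and 0.0010, and r was 0.82 without controls 8 and 14. Its median was 11963, and its highest values were 32623 in control 8, 24122 in control 14, 21981 in control 9 and 20426 in control 7. Controls 1 to 4 all lay at 7447 or below. Its sister Ube2d2 moved over a much smaller range, from 388 in control 4 through 518 to 727 in control 8, with a slope of 0.80 ± 0.18 and adjusted p = 0.0025.

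Ube2h, an E2 known for its induction late in red cell maturation and for working with the CTLH ligase, did not have an erythroid call here. It ranged from 3391 in control 2 through 5994 to 12655 in control 8. Its slope on the pan-leukocyte index was 1.68 ± 0.25, with adjusted p = 6.6e-05, and on the erythroid index 0.15 ± 0.25, with adjusted p = 0.87. In control 10, the library highest in erythroid genes, Ube2h stood at 4847, below its median. That library also lay below the median of the pan-leukocyte index, at 12.44 against 12.57.

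Ube2wl, named for its likeness to the N-terminal ubiquitinating enzyme Ube2w, ranged from 29.2 in control 4 through 59.4 to 135 in control 7, with a slope of 1.78 ± 0.40 and adjusted p = 0.0027. Ube2a, the sister of Ube2b, ranged from 407 in control 4 to 801 in control 8, with a slope of 0.54 ± 0.19 and adjusted p = 0.041. Its call was lost without any 1 of controls 4, 5, 6, 8, 9, 10, 14 or 15, with adjusted p up to 0.20 without control 8, with the file code in the fit (0.076), with the rows listed in the fit (0.0518) and without controls 2, 8, 10 and 12 (0.074). The calls of Ube2d3, Ube2h, Ube2wl and Ube2d2 held with the code in the fit, at adjusted p = 0.00019, 0.0011, 0.026 and 0.019.

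These calls rested on the list index and not on Ptprc. With Ptprc alone as the index, edgeR called 0 E2 rows and 0 of the 10920 genes, with 0 E2 rows and 561 genes at an unadjusted p under 0.05. With Alas2 alone in place of the erythroid index, edgeR called 11 E2 rows up and 0 down, against 820 and 30 of the genes. A fit of both list indices together called 9 E2 rows up and 0 down on the erythroid index, against 862 and 44 of the genes. On the pan-leukocyte index it called 6 E2 rows up and 0 down, against 1830 and 1659. With scaling to the total count, 15 E2 rows had a positive call on the pan-leukocyte index and 1, Ube2j1, a negative one. Of all 10920 genes, 3461 were then up and 198 down, and their median slope moved from -0.14 to 0.57. Ube2e1, whose slope was -0.56 ± 0.21 with adjusted p = 0.060, was called negative in DESeq2 and without control 4 or control 9.

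The lymphocyte and myeloid indices set out the same contrast. On the myeloid index 6 rows were up and 0 down in edgeR, against 16.4% and 11.7% of all genes. At an unadjusted p under 0.05, 9 were up and 1 down, against 40.5% of all genes in either direction. DESeq2 had 6 up and 0 down, against 1904 and 1674 of the 10920 genes. The libraries are the same as for the pan-leukocyte index and the axis nearly so. The slopes were 0.73 for Ube2d3, 0.56 for Ube2wl, 0.48 for Ube2h, 0.23 for Ube2d2 and 0.15 for Ube2a. The myeloid call of Ube2a (adjusted p = 0.044) was also lost without any 1 of controls 4, 5, 6, 7, 8, 9, 10, 14 or 15, with the file code in the fit (0.0675), without controls 2, 8, 10 and 12 (0.124) and with total count scaling (0.329). Total count scaling also ended that of Ube2d2 (0.0918).

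On the lymphocyte index 2 rows were up and 6 down, against 16.6% and 13.3% of all genes. Ube2cbp had a slope of 1.29 ± 0.31 with adjusted p = 0.0059, ranging from 13.0 in control 8 through 25.0 to 42.0 in control 2. Ube2e3 had a slope of 0.45 ± 0.16 with adjusted p = 0.041, ranging from 267 in control 7 to 472 in control 12. The negative slopes were those of Ube2d3 (-1.90), Ube2wl (-1.44), Ube2h (-1.32), Ube2b (-0.74) and Ube2d2 (-0.52). The call of Ube2e3 was lost without any 1 of controls 2, 6, 7, 8, 9 or 12, that of Ube2b without any 1 of controls 2, 6, 7 or 8, and that of Ube2d2 without any 1 of controls 2, 3, 7 or 8. The calls of Ube2b and Ube2e3 were also lost with the file code in the fit, at adjusted p = 0.39 and 0.18, with the rows listed in the fit, at 0.33 and 0.129, and without the filter on low counts, at 0.0532 and 0.0572, and that of Ube2b with RLE scaling, at 0.0547. With scaling to the total count there were 7 up and 0 down, against 6191 up and 54 down of all 10920 genes. The positive share of the E2 rows was then below that of all genes. The slope of Ube2d2 turned to 0.24 with this scaling. Without controls 2, 8, 10 and 12, edgeR called no gene on this index, with 2588 genes, 1 E2 row up and 5 E2 rows down at an unadjusted p under 0.05.

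**Figure D3:**
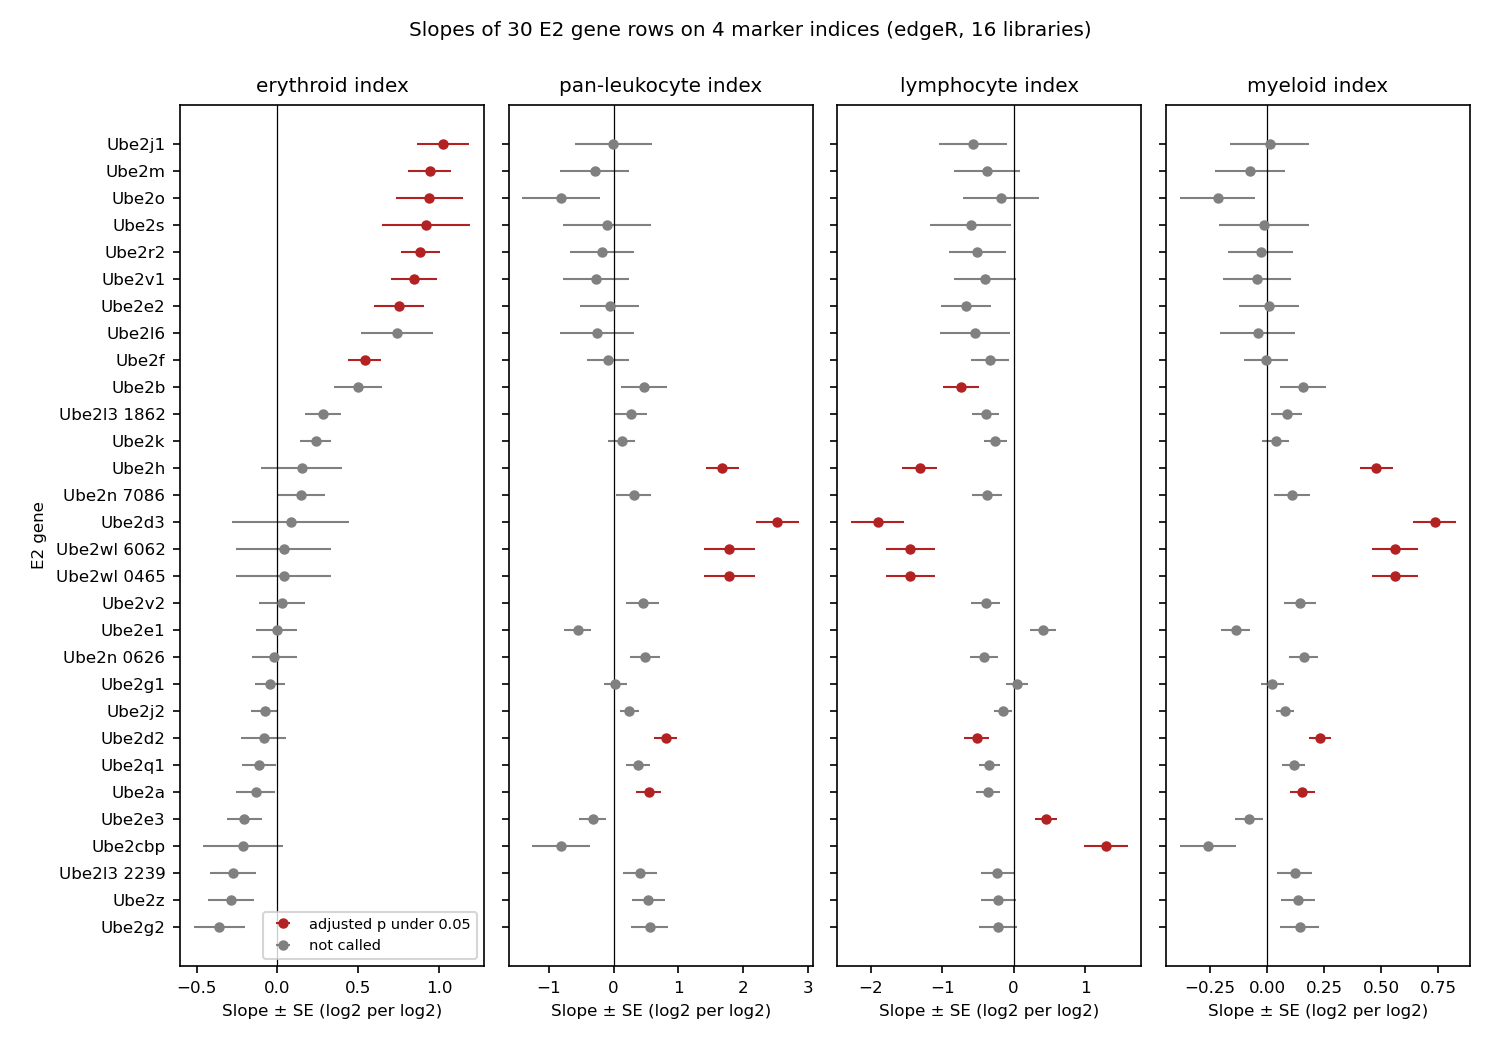
Slopes ± SE of 30 E2 rows on the 4 marker indices from edgeR over 16 libraries, in log2 units of the gene per log2 unit of the index. Rows are ordered by the erythroid slope, red points have an adjusted p under 0.05, and each panel has its own scale. On the pan-leukocyte and myeloid indices Ube2d3, Ube2h and Ube2wl lie farthest right.

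The remaining E2 rows had no call on any of the 4 indices in the main edgeR fit, which does not show that they have no slope. Among them the main row of Ube2l3, an enzyme that serves RBR-type ligases, ranged from 1952 to 3112, with slopes of 0.28 ± 0.11 on the erythroid and 0.26 ± 0.24 on the pan-leukocyte index. Its minor row, 70.1 to 139, had slopes of -0.28 ± 0.14 and 0.41 ± 0.27, so the identifiers differed in sign on the erythroid index without a call for either. RSEM divides reads that fit both rows, so values of rows sharing a symbol are uncertain. The main Ube2n row ranged from 318 to 604 and its other row from 261 to 556. Ube2k, Ube2z, Ube2g2, Ube2g1, Ube2q1, Ube2j2 and Ube2v2 had erythroid slopes between -0.36 and 0.24, and pan-leukocyte slopes between 0.02 and 0.55. The permutation test of r called Ube2q1 and Ube2j2 up on the myeloid index, at adjusted p = 0.038 and 0.030. It also called Ube2q1 down on the lymphocyte index (0.048). In edgeR that call of Ube2q1 was present with the file code in the fit (0.037) and with the rows listed (0.020).

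Of 76 other genes of the pathway, listed as E1 enzymes, E2-fold genes without a Ube2 symbol, modifiers and E3 ligases, 73 were found and 72 tested. On the erythroid index 10 were up (13.9%) and 1 was down (1.39%), against 7.31% and 0.0733% of all genes, with a median slope of -0.05 against -0.08. On the pan-leukocyte index 13 were up (18.1%) and 5 down (6.94%), against 16.1% and 10.7% of all genes, so the shares were near the background, with a median of 0.12 against -0.14. Trim58, an E3 ligase of late erythroid cells, had the steepest erythroid slope, 1.17 ± 0.13 with adjusted p = 4.4e-05, and ranged from 333 to 1575. Nedd4l followed at 1.16 ± 0.14 and Rnf123 at 0.98 ± 0.13, both E3 ligases. Ube4a, an E3 and chain-elongating enzyme, was the 1 gene down, at -0.28 ± 0.08.

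Nedd8, the modifier that Ube2m and Ube2f carry, had an erythroid slope of 0.80 ± 0.14 with adjusted p = 0.00084, ranging from 2825 to 9205. Of the E1 list, 0 of 10 genes were called on the erythroid index in edgeR, and Uba3, the catalytic subunit of the NEDD8 E1, was up on the pan-leukocyte index at 0.60 ± 0.20. Nae1, its partner subunit, had -0.48 ± 0.23 on that index, with adjusted p = 0.13. Cdc34, the relative of Ube2r2, had an erythroid slope of 0.76 ± 0.13 with adjusted p = 0.00073, from 869 to 3066, and Tsg101, an inactive E2-like protein of endosomal sorting, 0.61 ± 0.10.

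Among the modifiers, Isg15 had a pan-leukocyte slope of 2.95 ± 0.65 with adjusted p = 0.0025 and ranged from 688 to 11255 in control 14. Its E2, Ube2l6, had -0.25 ± 0.57 on that index, with adjusted p = 0.77. Birc3, an E3 ligase of NF-kB signalling, had the steepest pan-leukocyte slope of these lists, 3.48 ± 0.33 with adjusted p = 3.8e-07, followed by Rnf19b at 1.89 ± 0.34 and Ube4b at 1.67 ± 0.26. Fancl, the E3 partner of Ube2t, fell with the index at -0.96 ± 0.24, and Rnf14 and Rnf168 had -0.89 ± 0.28 and -0.86 ± 0.31. Sae1 and Uba2, the subunits of the SUMO E1, were down at -0.65 ± 0.18 and -0.58 ± 0.19, and Uba1, the main ubiquitin E1, was up at 0.68 ± 0.21. The calls of Uba1, Uba3 and Rnf168 were lost with the file code in the fit, at adjusted p = 0.072, 0.16 and 0.085. Without controls 2, 8, 10 and 12, 7 genes were up and 0 down on this index, and those of Fancl, Rnf14, Rnf168, Sae1, Uba2 and Uba1 were among the calls lost. On the erythroid index the 10 up became 0 with the file code, 4 without those 4 libraries (Trim58, Nedd4l, Rnf123 and Fbxo7) and 3 with total count scaling (Trim58, Nedd4l and Rnf123), and the call of Ube4a was lost in each.

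**Figure D4:**
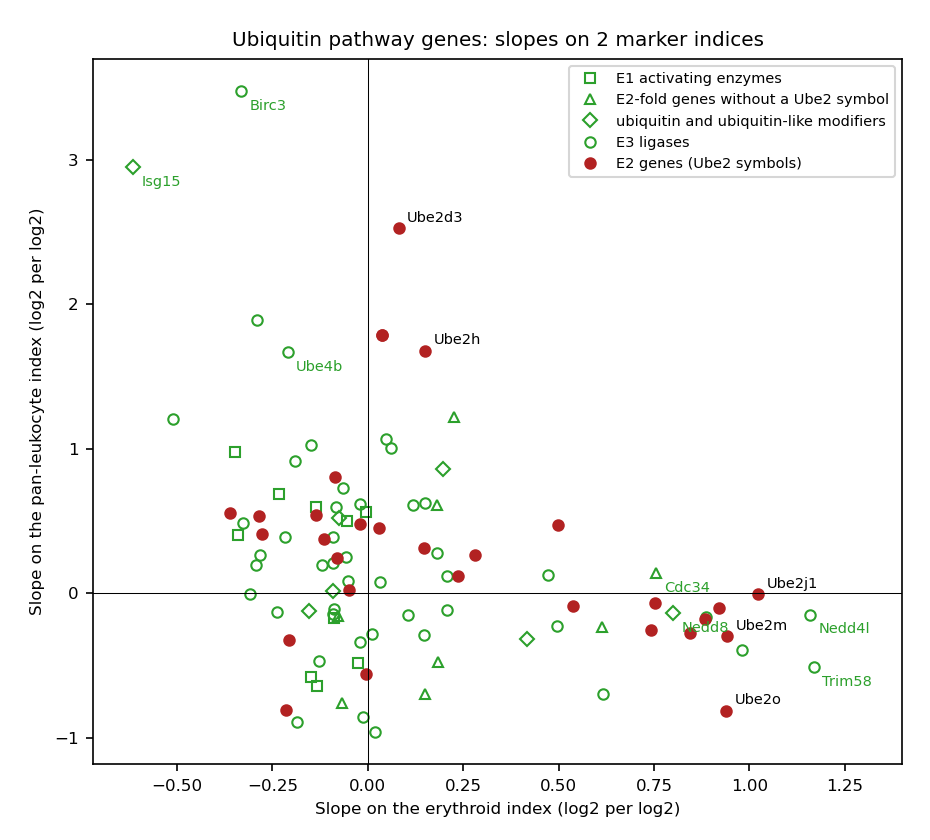
Slope on the pan-leukocyte index against slope on the erythroid index for 30 tested E2 rows (filled) and 70 other pathway genes (open, shaped by list), each point 1 gene row, in log2 units per log2 unit. Ube2j1, Ube2m and Ube2o lie at the right beside Trim58, Nedd4l and Cdc34, and Ube2d3 and Ube2h lie high near an erythroid slope of 0.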

How the data were processed

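The authors deposited estimated counts per gene for each of the 16 libraries, made with RSEM 1.2.0 after Bowtie 0.12.9 alignment to an Ensembl transcriptome of rn5, with CASAVA 1.8.2 before it. The deposited estimated counts are not normalized. Between 19.3% and 27.1% of a library's values were not whole, and they were rounded here.

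Each gene was fitted on each marker index with edgeR 4.0.16 (quasi-likelihood test, TMM scaling, filterByExpr, Benjamini-Hochberg over 10920 genes) in R 4.3.3. DESeq2 1.42.0 and 100000 permutations of Pearson r, without regard to file code, were alternatives. The fits were tested on simulated data, where most slopes set in advance on the erythroid, pan-leukocyte and lymphocyte indices were not called. Far fewer genes were given a slope there than were called here on each of these indices, which makes the adjustment stricter. The share of slopes missed in these data is therefore not known, and a missing call does not show that a slope is absent. Full values are given for the called rows with the largest slopes, for the 3 highest and 3 lowest CVs and for a fixed list of E2 genes, and for pathway genes for up to 3 called in each direction per list.

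The genes, lists and indices were chosen with earlier results of these data known. Some genes of the family and the pathway are not reported here singly, though tested ones count in the totals except 1 symbol left out throughout, and Ube2d4l1, listed in 2 files at 0 counts, was left out. The study's rats came from replicate experiments on several dates, which the labels do not give per library, so p-values measure the spread between libraries pooled over dates. The floor of 3 counts is 0.096 to 0.14 CPM and covers counting error only. Every 2 libraries differed by more than sampling noise (lowest chi-square per degree of freedom 48.0). That comparison covers counting error only and cannot show that 2 libraries came from different rats. Each library was taken as 1 sample by its label. Transcript lengths were not used here, so levels were not compared between genes. Counts are on rn5 and start sites on GRCr8, joined by symbol.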

Additional observations from a re-analysis of the deposited data

How the results depend on the processing

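Alternatives changed the number of E2 rows called as follows. On the erythroid index the 8 positive calls became 0 with total count scaling, with the file code as a factor and with the rows listed as a factor, and 5 without controls 2, 8, 10 and 12, and leaving out 1 library gave 7 to 10. On the pan-leukocyte index the 6 positive calls became 15 with total count scaling and 0 with Ptprc alone, and leaving out 1 library gave 5 to 7. Its 0 negative calls became 1 with total count scaling and in DESeq2, and 0 to 1 when 1 library was left out. On the lymphocyte index the 2 positive calls became 7 with total count scaling, 1 without the filter on low counts, 1 with the file code or the rows listed, 0 without the 4 libraries and 1 to 2 when 1 library was left out. Its 6 negative calls became 0 with total count scaling and without the 4 libraries, and 4 to 7 when 1 library was left out. On the myeloid index the 6 positive calls became 4 with total count scaling and 9 by permutation, and the 0 negative calls became 0 to 1 when 1 library was left out. Calls over all 10920 genes moved too with total count scaling. They became 1327 up and 70 down on the myeloid index, with the other indices given above. The 2 E2 rows differing between file codes became 4 with RLE scaling, 0 with total count scaling, 1 without the filter and 8 in DESeq2. Over all genes the 230 calls became 283, 7, 114 and 794 in the same order.

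Pathway genes up on the erythroid index went from 10 to 3 with total count scaling, 0 with the file code or the rows listed and 4 without the 4 libraries, and the 1 gene down became 0 with RLE scaling and in each of those. On the pan-leukocyte index the 13 up became 31 with total count scaling and 7 without the 4 libraries, and the 5 down became 1 and 0. The relation of the pan-leukocyte and lymphocyte indices turned to r = 0.29 with total count scaling and was -0.59 without the 4 libraries (adjusted p = 0.077). That of the lymphocyte and myeloid indices was -0.30 with total count scaling, and that of the erythroid and lymphocyte indices, -0.28, turned to 0.33 within file codes. The slope of Ube2b on the erythroid index turned to -0.0237 with the file code, and that of Ube2d2 on the lymphocyte index to 0.24 with total count scaling. The cause was not tested. No paired analysis was possible because the libraries form 1 group.

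Total counts limit Ube2u and Ube2ql1, which had at most 2 counts in a library.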

Other observations

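After the data were seen, both indices were set against 3 further measures of each library, giving 6 added relations over 16 libraries. For platelet and cell cycle genes the measure was the mean over the list genes that passed the filter of log2(normalized count + 1). The erythroid index had r = -0.26 with the platelet mean, 0.26 with the cell cycle mean and -0.09 with the total count, with rho of 0.01, 0.49 and -0.02. Permutation p of these r values was 0.34, 0.34 and 0.74, and r without controls 5 and 10 was 0.31, 0.10 and -0.18. The pan-leukocyte index had r = 0.45, -0.32 and -0.22, with rho of 0.51, -0.26 and -0.22, permutation p of 0.070, 0.23 and 0.41, and r without controls 8 and 14 of 0.30, -0.53 and -0.33. The adjusted p over the 6 was 0.42 or more. Whether platelet RNA takes part in the E2 slopes was not tested.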
